A study of Homo sapiens with 18 samples.

Results

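A375M2 melanoma cells that carried short hairpin RNAs (shRNAs) against FHL2 were compared with A375M2 cells that carried shRNAs against NFYA, across all annotated genes. The members were chosen by their labels: 3 arrays of shFHL2 cells and 3 arrays of shNFYA cells, 6 of the 18 arrays in the series, with 10940 genes tested on each. A375M2 is a metastatic derivative of the human melanoma line A375, and the labels give A375 as the cell line and A375M2 as the source. Gene expression was measured in total RNA on Affymetrix 3′ expression arrays, in cells seeded at equal numbers and grown to near confluence. The shFHL2 cells had been transduced with a pool of 3 lentiviral constructs against FHL2, selected with puromycin, sorted for the highest GFP signal and kept under selection. The shNFYA cells had been transduced with lentiviral shRNAs against NFYA. The labels describe constructs, selection and sorting for FHL2 and not for NFYA. The shFHL2 arm is a sorted population, and whether each arm comes from 1 transduction is not stated, so a difference between the populations themselves and a difference made by their shRNAs cannot be told apart. The other groups, used here only as side values, were A375M2 with a GFP vector, A375M2 with full-length PMEL, C32 melanoma cells with the FHL2 shRNAs and C32 with a GFP vector, each of 3 arrays.

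FHL2 is a scaffold protein built of LIM domains, zinc-binding protein interaction modules; it binds integrins at focal adhesions and transcriptional regulators in the nucleus. NFYA is the DNA-binding subunit of NF-Y, a trimer with NFYB and NFYC that recognises the CCAAT box of many promoters, among them those of mitotic, MHC class II and endoplasmic reticulum chaperone genes. The NFYB and NFYC subunits pair through histone folds, and NFYA joins that pair to complete the factor. Both arms carried shRNA vectors, so the comparison sets one knockdown against another with no non-targeting shRNA among the groups. A gene that is higher in shFHL2 cells may equally be one that is lower in shNFYA cells, and the difference alone cannot be assigned to either arm.

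The values are log2 signals, and a difference of 1 is a 2-fold difference. Values on the 6 arrays ran from 0.53 to 16.72 log2, and the array medians of the genes tested were 9.05 ± 0.02 in shFHL2 and 9.06 ± 0.02 in shNFYA (SD, n = 3 each). Replicate arrays lay 0.152 to 0.158 log2 (SD over the genes tested) from the mean of the other arrays of their group in shFHL2, and 0.171 to 0.18 in shNFYA. Ribosomal 18S probe sets read 14.18 ± 0.07 in shFHL2 and 14.19 ± 0.11 in shNFYA. The spike-in controls with a poly-A tail averaged 6.57 ± 0.14 in shFHL2 and 6.84 ± 0.05 in shNFYA (SD, n = 3 each), and the actin 3′ minus 5′ difference, a sign of RNA integrity, was 1.07 ± 0.08 in shFHL2 and 1.19 ± 0.08 in shNFYA. At 298 probe sets all 6 arrays held one equal low value, so the arms share their lowest values. The A375M2 GFP arrays have another floor: replicate 1 equalled the shared value at 0 of these probe sets and lay 0.7 log2 above it in the median.

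Both targets were lowest in their own arm. FHL2 read 7.01, 7.26 and 7.25 log2 in shFHL2 cells, against 11.13, 11.07 and 11.10 log2 in shNFYA cells. The arrays did not overlap, and the difference of -3.93 (SE 0.144, limma adjusted p = 1.32e-13) is 15.2-fold. NFYA read 8.95, 8.76 and 8.86 log2 in shFHL2 cells, against 7.69, 7.34 and 7.54 log2 in shNFYA cells. It was 2.52-fold higher in shFHL2 (difference 1.33, SE 0.0941, adjusted p = 8.90e-10), and the other NFYA probe sets that lay above log2 4 differed by 1.18 and 1.51. A further NFYA probe set lay under log2 4 in both arms. In A375M2 GFP cells, given as a level with no test, FHL2 averaged 11.21 and NFYA 9.59 log2. PMEL, the structural protein of melanosome fibrils, lay under log2 4 in both arms at 3.35 ± 0.24 in shFHL2 and 3.25 ± 0.05 in shNFYA (SD, n = 3 each), and its difference of 0.10 did not pass the test (adjusted p = 0.499).

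The partner subunits of NFYA ran the other way from NFYA itself. NFYC, 1 of the histone-fold subunits of NF-Y, read 8.32, 8.45 and 8.24 log2 in shFHL2, against 9.65, 9.65 and 9.71 log2 in shNFYA. NFYB, its partner, read 9.09, 9.08 and 8.99 log2 in shFHL2, against 9.86, 9.79 and 9.94 log2 in shNFYA. Neither gene's arrays overlapped between the arms, as for 74% of all genes tested. The differences were -1.33 for NFYC (SE 0.061, limma adjusted p = 2.59e-12) and -0.81 for NFYB (SE 0.0549, adjusted p = 5.31e-10). All 4 NFYC probe sets were lower in shFHL2, from -1.10 to -1.33, as were the 3 NFYB probe sets that passed the filter on low values, from -0.81 to -1.06. Among the other histone-fold genes of the list, POLE4, a small subunit of DNA polymerase epsilon, differed by -0.34, DRAP1 by -0.41 and CHRAC1 by 0.30, and POLE3 and DR1 did not pass the test at -0.07 and -0.10. In all, 2 of the 8 genes (25%) were called higher, the target NFYA among them, and 4 (50%) lower. Of all genes tested, 31.8% were called higher and 38.3% lower.

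Most genes differed between the arms, though mostly by less than 2-fold. A gene was called where the Benjamini-Hochberg adjusted p of the limma fit was under 0.05. Of 10940 genes, 7672 (70.1%) were called, 3477 higher in shFHL2 (31.8%) and 4195 lower (38.3%). At a difference of 2-fold or more, 1137 genes (10.4%) were called, 697 higher (6.37%) and 440 lower (4.02%). The 3 arrays of one arm all lay beyond the 3 arrays of the other for 8100 genes (74%), and 7410 genes were both called and separated in this way. The median SE of a difference was 0.071 and the median difference over all genes -0.03, so small differences passed the test. Both arms lay under log2 4 for 522 of the genes tested, and 1 arm did for 302; for the latter, the size of the difference depends on the lowest values of the arrays, and it is also given with values under log2 4 set to 4.

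**Figure D1:**
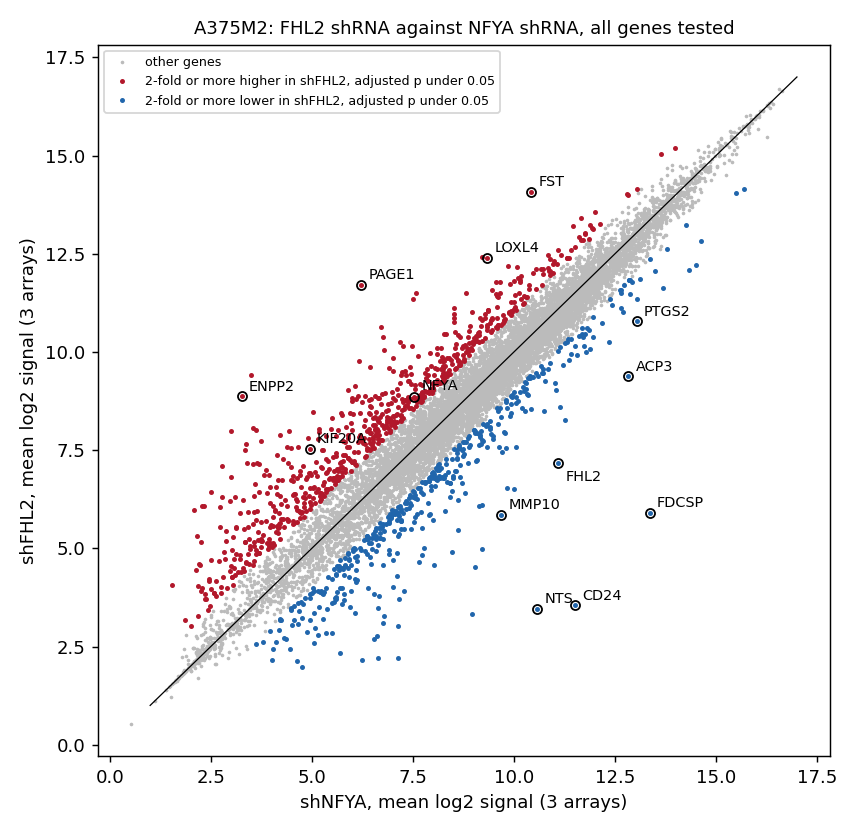
Mean log2 signal of 3 shFHL2 arrays (vertical axis) against 3 shNFYA arrays (horizontal axis) for the 10940 genes tested; red points are the 697 genes called 2-fold or more higher in shFHL2, blue points the 440 lower, and the line marks equal levels. FHL2 lies below the line at 7.17 against 11.10 and NFYA above it at 8.86 against 7.52.

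The largest rises in shFHL2 relative to shNFYA included a cancer-testis gene, secreted and matrix proteins and a fatty acid-binding protein of the brain. PAGE1, an X-linked cancer-testis gene of a family with near-identical copies, read 11.67, 11.72 and 11.73 log2 in shFHL2, against 6.42, 5.90 and 6.32 log2 in shNFYA. That is 45-fold (difference 5.49, SE 0.178, adjusted p = 2.52e-14), with GFP cells at 5.74, near the shNFYA level. ENPP2, the enzyme autotaxin that makes the signalling lipid lysophosphatidic acid, read 8.96, 8.86 and 8.78 log2 in shFHL2, against 3.29, 3.39 and 3.11 in shNFYA (difference 5.60, SE 0.0627, adjusted p = 6.44e-20). With values under log2 4 set to 4 its difference was 4.87, and GFP cells stood at 13.31, above both arms. As measured, the 2 ENPP2 probe sets differed by 2.82 and 5.60. FABP7, the brain fatty acid-binding protein of radial glia, read 8.06, 8.01 and 7.87 in shFHL2, against 3.05, 2.88 and 3.05 in shNFYA, a floored difference of 3.98.

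FST, which encodes follistatin, a secreted inhibitor of activins, was high in both arms at 13.98, 14.09 and 14.16 log2 in shFHL2, against 10.54, 10.38 and 10.38 in shNFYA. The arrays did not overlap, and the difference of 3.65 (SE 0.0788, adjusted p = 1.75e-16) is 12.5-fold, with GFP cells at 10.49. HBE1, embryonic epsilon-globin, averaged 11.34 ± 0.04 in shFHL2 and 7.50 ± 0.08 in shNFYA (SD, n = 3 each), with GFP cells at 7.67. HMCN1, the matrix protein hemicentin-1, averaged 11.51 ± 0.08 in shFHL2 and 7.57 ± 0.17 in shNFYA, and MEOX2, a homeobox transcription factor, 10.63 ± 0.08 and 6.72 ± 0.49 in the same order (SD, n = 3 each). Both had higher levels still in GFP cells, at 13.71 and 11.82 log2. The rest of the 12 largest rises were TMEM132D-AS1 (floored difference 5.42), a transcript annotated as antisense to TMEM132D, SLFN11 (4.02), which acts in the response to DNA damage, CSTA (4.01), the cysteine protease inhibitor cystatin A, FREM2 (3.72), a basement membrane protein, and MCTP2 (3.65), a membrane protein.

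The largest falls included a surface glycoprotein, secreted peptides, a chemokine and a matrix protease, and 8 of the 12 lay under log2 4 in GFP cells. CD24, a lipid-anchored surface glycoprotein whose gene has near-identical copies in the genome, read 3.79, 3.76 and 3.10 log2 in shFHL2, against 11.46, 11.57 and 11.50 in shNFYA. With values under log2 4 set to 4 it differed by -7.51 (as measured -7.96, SE 0.14, adjusted p = 1.13e-17), and GFP cells stood at 2.40. FDCSP, a small secreted peptide made by follicular dendritic cells, read 5.79, 5.85 and 6.08 in shFHL2, against 13.27, 13.47 and 13.35 in shNFYA (difference -7.46, SE 0.0929, adjusted p = 1.67e-19), with GFP cells at 2.21. Its 3 shFHL2 arrays lay between the GFP and shNFYA levels. NTS, which encodes the peptide neurotensin, read 4.48, 2.82 and 3.09 in shFHL2, against 10.51, 10.57 and 10.66 in shNFYA, a floored difference of -6.42.

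DRAIC, a long non-coding RNA, averaged 3.32 ± 0.16 log2 in shFHL2 and 8.96 ± 0.09 in shNFYA (SD, n = 3 each; floored difference -4.96). MMP10, the secreted protease stromelysin-2, read 5.63, 5.97 and 5.97 in shFHL2, against 9.68, 9.49 and 9.89 in shNFYA (difference -3.83, SE 0.117, adjusted p = 1.20e-14), and GFP cells stood at 2.47. CCL20, a chemokine that attracts lymphocytes and dendritic cells, averaged 6.51 ± 0.02 in shFHL2 and 9.99 ± 0.05 in shNFYA (SD, n = 3 each). KRT15, a keratin of basal epithelial cells, spread widely in shFHL2 at 3.82, 5.63 and 4.26, against 7.997, 8.11 and 7.95 in shNFYA. The rest of the 12 largest falls were FHL2 itself, SULT1B1 (-4.53), a cytosolic sulfotransferase, SPANXB1 (-4.22), a cancer-testis gene with near-identical copies, PNLIPRP3 (-3.56), a lipase-related protein, and ACP3 (-3.45), the prostatic acid phosphatase. For each of these 24 genes the 3 arrays of one arm lay beyond the 3 arrays of the other, which is part of the rule that chose them. By group means, CD24, NTS and DRAIC reached log2 4 only in shNFYA, and MCTP2 only in shFHL2. They passed the filter on low values through the arm where they were high, so their place among the genes tested depended on that arm.

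**Figure D2:**
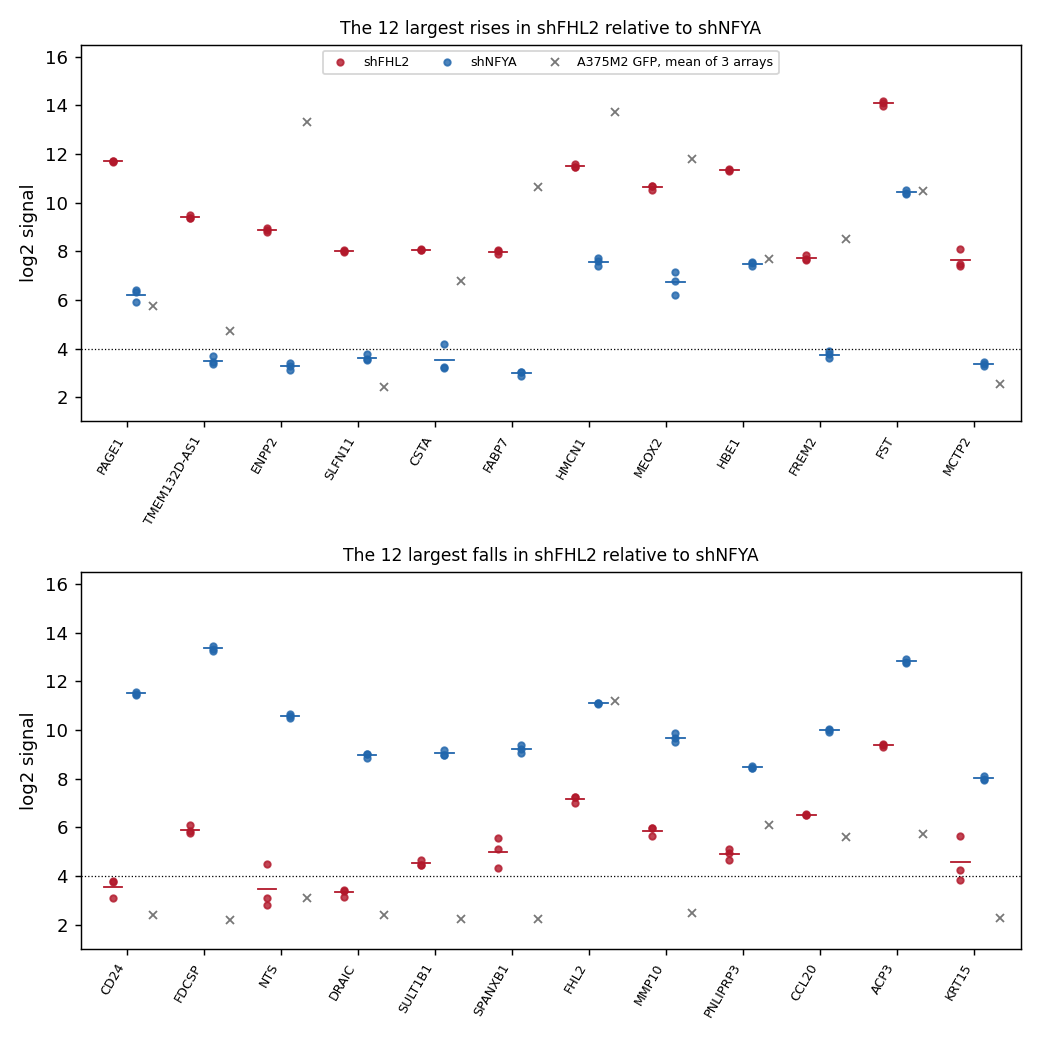
Log2 signal on each array for the 12 genes with the largest rises (top) and falls (bottom) in shFHL2 relative to shNFYA; red points are the 3 shFHL2 arrays, blue points the 3 shNFYA arrays, short lines their means, crosses the mean of 3 A375M2 GFP arrays, and the dotted line log2 4. PAGE1, HBE1 and FST have GFP levels near shNFYA, and ENPP2, HMCN1 and MEOX2 have GFP levels above both arms.

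Among genes at log2 8 or more in both arms, where the floor plays no part, the rises after FST were led by IL37, a member of the interleukin-1 family, at 12.56, 12.39 and 12.33 log2 in shFHL2, against 9.22, 9.002 and 9.44 in shNFYA (difference 3.21, SE 0.121, adjusted p = 2.09e-13). LOXL4, a lysyl oxidase-like enzyme of collagen and elastin cross-linking, differed by 3.06, and PRRX1, a homeobox factor of mesenchymal cells, by 2.68. FAM133A differed by 2.60 and HINT2, a mitochondrial histidine triad protein, by 2.45. On the other side, after ACP3, SCG5, a neuroendocrine chaperone, averaged 8.25 ± 0.04 in shFHL2 and 11.27 ± 0.09 in shNFYA (SD, n = 3 each; difference -3.01, SE 0.0887, adjusted p = 7.69e-15). TCN1, a vitamin B12-binding protein, differed by -2.55, FERMT1, the integrin activator kindlin-1, by -2.28, PTGS2, the prostaglandin synthase cyclooxygenase-2, by -2.25 and CTSS, the lysosomal protease cathepsin S, by -2.24.

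Gene lists were described by how many measured members were called each way, to be read against the 31.8% higher and 38.3% lower of all genes. Among the lists other than the cell type markers, those with the highest share of members called higher were MHC class II antigen presentation, G2/M and mitosis, and G1/S and DNA replication. The NF-kB targets and cytokines had the highest share called lower. The lists were drawn up with earlier results of these data known and received no test of their own.

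**Figure D3:**
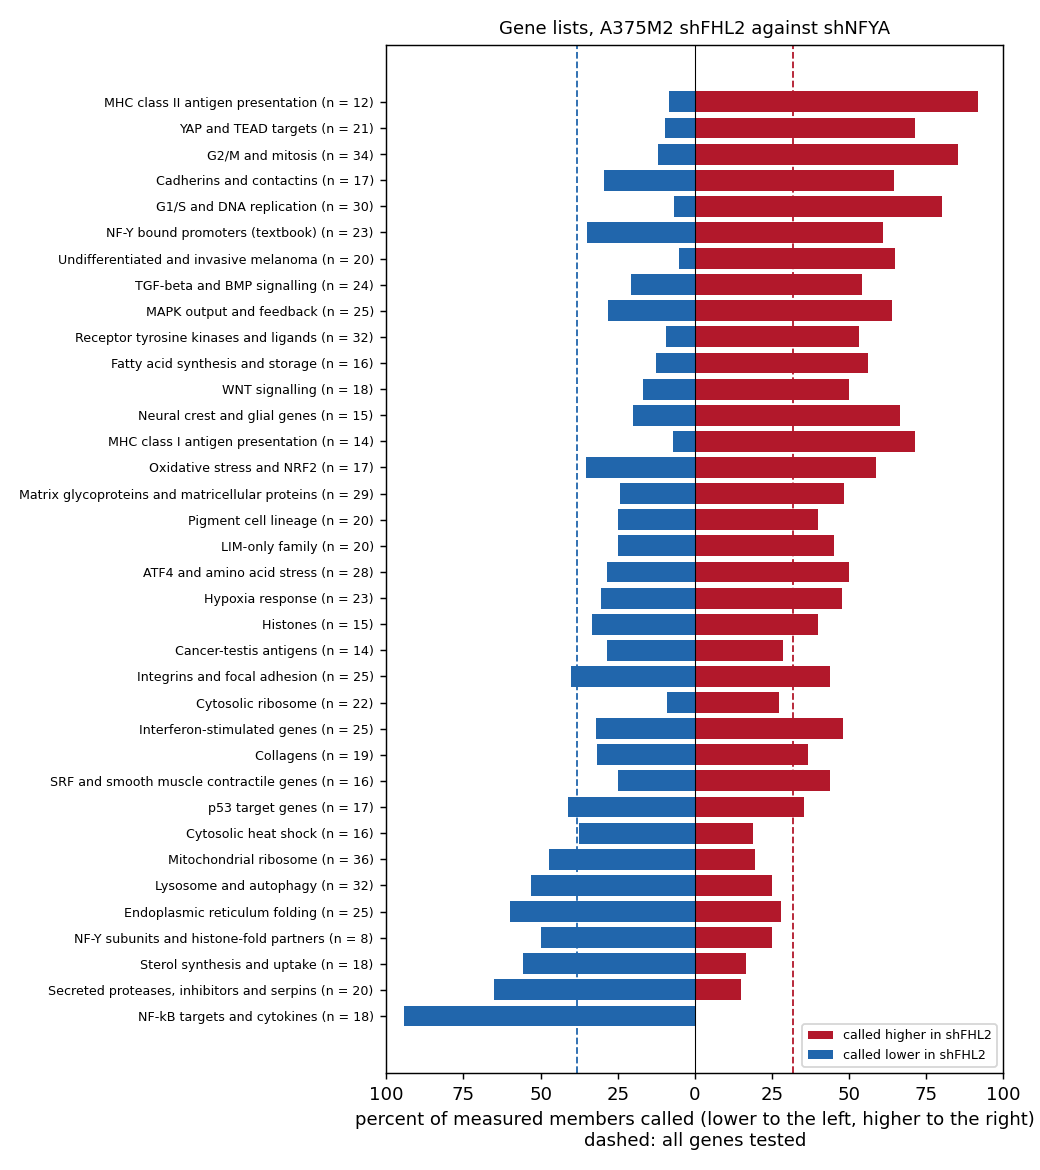
Share of the measured members of each gene list called higher (red, to the right) or lower (blue, to the left) in shFHL2 than in shNFYA, in percent, ordered by the median difference of the list; dashed lines mark the shares over all genes tested, 31.8% higher and 38.3% lower. MHC class II genes reached 91.7% higher and NF-kB targets and cytokines 94.4% lower.

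Genes of mitosis were higher in shFHL2 cells. Of 34 measured G2/M and mitosis genes, 29 (85.3%) were called higher and 4 lower, with a median difference of 0.65 against -0.03 over all genes, and 10 were higher by 2-fold or more. KIF20A, a kinesin of the central spindle needed for cytokinesis, read 7.60, 7.45 and 7.57 log2 in shFHL2, against 4.58, 5.05 and 5.19 in shNFYA, a 6.06-fold difference (2.60, SE 0.106, adjusted p = 5.45e-13). DLGAP5, a spindle assembly factor, read 7.93, 7.89 and 7.83 in shFHL2, against 6.10, 6.14 and 6.36 in shNFYA (1.69, SE 0.0626, adjusted p = 1.59e-13). TOP2A, the DNA topoisomerase that untangles sister chromatids, read 10.66, 10.69 and 10.69 in shFHL2, against 9.30, 9.39 and 9.29 in shNFYA (1.35, SE 0.034, adjusted p = 1.25e-15), and ANLN, the cytokinesis scaffold anillin, differed by 1.38. The arrays of these 4 genes, picked by their small adjusted p, did not overlap between the arms, as for 74% of all genes tested. Their GFP levels of 10.06, 9.09, 11.47 and 10.40 log2 lay above both arms.

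The 4 members called lower in shFHL2 were CCNB1, AURKA, CDC25B and BUB3. CCNB1, the cyclin that starts mitosis with CDK1, read 9.32, 9.40 and 9.41 log2 in shFHL2, against 10.12, 10.11 and 10.20 in shNFYA (-0.77, SE 0.042, adjusted p = 2.99e-11). AURKA, a spindle pole kinase, differed by -0.62, the phosphatase CDC25B by -0.27 and the checkpoint protein BUB3 by -0.14; ECT2, at -0.09, did not pass the test. The mitotic genes therefore did not all run one way: CCNB2, the sister cyclin of CCNB1, averaged 9.70 ± 0.05 in shFHL2 and 8.86 ± 0.09 in shNFYA (SD, n = 3 each; 0.84, SE 0.0552, adjusted p = 3.31e-10).

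Genes of DNA replication were also mostly higher. Of 30 measured G1/S genes, 24 (80%) were called higher and 2 lower, FEN1 at -0.17 and SLBP at -0.39, with a median difference of 0.50. UHRF1, which keeps DNA methylation in place after replication, read 10.88, 10.83 and 10.89 log2 in shFHL2, against 8.48, 8.60 and 8.44 in shNFYA (2.36, SE 0.0608, adjusted p = 1.60e-15). TYMS, thymidylate synthase, differed by 1.08 and RRM1, the large subunit of ribonucleotide reductase, by 0.74. MCM6, a subunit of the replicative helicase, differed by 0.89 on its brightest probe set and by 0.23, without passing the test, on its other probe set (adjusted p = 0.369).

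NF-Y recognises CCAAT, so the promoters of KIF20A, TOP2A and DLGAP5, among the mitotic genes that led the list, are shown with that pentamer marked. The windows run from 250 bases before to 50 after the start of the gene in RefSeq (GRCh38.p14), read 5′ to 3′ on the strand of the gene; capitals mark CCAAT or its reverse complement ATTGG. SDF2L1, a chaperone cofactor of the endoplasmic reticulum described below with the folding genes, is set beside them, as is CCNB1, since both hold the pentamer and were lower in shFHL2. CCNB2, the sister cyclin of CCNB1, was higher in shFHL2 but did not lead the list. Every promoter printed holds a match, so the selection does not show how common the pentamer is among mitotic genes.
KIF20A (chr5:138178862-138179161, plus strand): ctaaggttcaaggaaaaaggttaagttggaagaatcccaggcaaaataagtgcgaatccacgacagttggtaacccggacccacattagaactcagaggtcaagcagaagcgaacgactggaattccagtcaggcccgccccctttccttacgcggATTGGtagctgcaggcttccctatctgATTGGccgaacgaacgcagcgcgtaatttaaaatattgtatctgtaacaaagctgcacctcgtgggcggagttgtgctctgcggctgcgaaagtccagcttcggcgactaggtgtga
TOP2A (chr17:40417847-40418146, minus strand): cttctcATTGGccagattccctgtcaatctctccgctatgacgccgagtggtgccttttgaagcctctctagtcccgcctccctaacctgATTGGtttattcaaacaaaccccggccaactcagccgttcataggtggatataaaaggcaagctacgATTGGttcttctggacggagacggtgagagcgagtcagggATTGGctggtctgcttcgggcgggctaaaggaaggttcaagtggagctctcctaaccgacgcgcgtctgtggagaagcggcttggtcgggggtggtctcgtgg
DLGAP5 (chr14:55191536-55191835, minus strand): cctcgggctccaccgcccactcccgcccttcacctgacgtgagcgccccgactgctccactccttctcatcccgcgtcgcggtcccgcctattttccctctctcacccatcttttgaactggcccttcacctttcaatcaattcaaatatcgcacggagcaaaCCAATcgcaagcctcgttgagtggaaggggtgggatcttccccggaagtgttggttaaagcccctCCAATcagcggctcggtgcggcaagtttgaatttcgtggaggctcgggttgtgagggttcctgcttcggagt
CCNB2 (chr15:59104896-59105195, plus strand): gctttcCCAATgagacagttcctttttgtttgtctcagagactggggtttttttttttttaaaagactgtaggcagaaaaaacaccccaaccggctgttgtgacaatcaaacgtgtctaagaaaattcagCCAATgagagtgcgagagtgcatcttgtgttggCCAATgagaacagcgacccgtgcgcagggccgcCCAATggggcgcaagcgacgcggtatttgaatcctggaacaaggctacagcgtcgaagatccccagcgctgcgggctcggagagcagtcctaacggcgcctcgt
CCNB1 (chr5:69166900-69167199, plus strand): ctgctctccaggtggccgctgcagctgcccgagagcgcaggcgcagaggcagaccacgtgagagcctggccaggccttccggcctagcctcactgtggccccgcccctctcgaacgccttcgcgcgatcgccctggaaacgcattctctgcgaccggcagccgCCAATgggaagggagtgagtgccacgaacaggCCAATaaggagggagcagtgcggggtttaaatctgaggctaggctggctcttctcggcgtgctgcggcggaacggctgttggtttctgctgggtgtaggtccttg
SDF2L1 (chr22:21642052-21642351, plus strand): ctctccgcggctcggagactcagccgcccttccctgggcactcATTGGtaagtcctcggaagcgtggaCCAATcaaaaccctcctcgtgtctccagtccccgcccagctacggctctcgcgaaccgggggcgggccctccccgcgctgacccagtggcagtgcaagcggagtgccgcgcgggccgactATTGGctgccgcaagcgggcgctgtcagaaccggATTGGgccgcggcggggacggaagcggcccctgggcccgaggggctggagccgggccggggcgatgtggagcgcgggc
KIF20A, DLGAP5 and CCNB1 each hold 2 matches, and TOP2A, CCNB2 and SDF2L1 hold 4. ANLN, which also led the list and was higher in shFHL2, holds 0 in this window and is not printed. A match describes the letters of the window and does not show that the factor binds there.

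A CCAAT or ATTGG pentamer was found in 37.2% of the 9058 promoters of genes tested that the RefSeq table holds, and in 71.4% of 28 promoters of the G2/M list, 59.3% of 27 of the G1/S list and 87.5% of 8 of the MHC class II list. The highest share stood in a list that ran the other way: 91.7% of 24 promoters of endoplasmic reticulum folding genes held it, and those genes were mostly lower in shFHL2. Among genes called 2-fold or more higher, 42.8% of 530 promoters held it, and among those 2-fold or more lower, 37.4% of 348. The median difference was -0.05 for 5685 genes with no match, -0.03 for 2118 genes with 1 and -0.00085 for 1255 genes with at least 2. In the same order, the share called higher was 29.9%, 32.9% and 35.6%, and the share called lower 39.4%, 39.7% and 37%. In each class more genes were thus called lower than higher, and these shares were not tested. Of 23 measured genes that textbooks name as NF-Y targets, 14 (60.9%) were called higher and 8 (34.8%) lower.

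Inflammatory genes were lower in shFHL2 cells. Of 18 measured NF-kB targets and cytokines, 17 (94.4%) were called lower and 0 higher, with a median difference of -1.11, and 10 were lower by 2-fold or more. NFKB2, at -0.17, did not pass the test. IL1B, the cytokine interleukin-1 beta, read 6.44, 6.69 and 6.50 log2 in shFHL2, against 9.81, 9.77 and 9.95 in shNFYA, a 9.82-fold difference (-3.30, SE 0.105, adjusted p = 2.16e-14). CXCL1, a neutrophil chemokine, read 10.27, 10.27 and 10.25 in shFHL2, against 12.39, 12.30 and 12.35 in shNFYA (-2.08, SE 0.0678, adjusted p = 2.72e-14). TNFAIP6, a hyaluronan-binding protein induced by tumour necrosis factor, read 3.57, 3.10 and 3.17 in shFHL2, against 6.77, 6.88 and 6.68 in shNFYA, a floored difference of -2.78. CXCL8, interleukin-8, was among the brightest at 13.87, 14.08 and 14.17 in shFHL2, against 15.75, 15.43 and 15.28 in shNFYA (-1.45). The arrays of these genes did not overlap, as for 74% of all genes tested. In GFP cells IL1B stood at 2.98, CXCL1 at 8.57 and CXCL8 at 11.17 log2, below both arms, while TNFAIP6 stood at 9.97, above both.

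**Figure D4:**
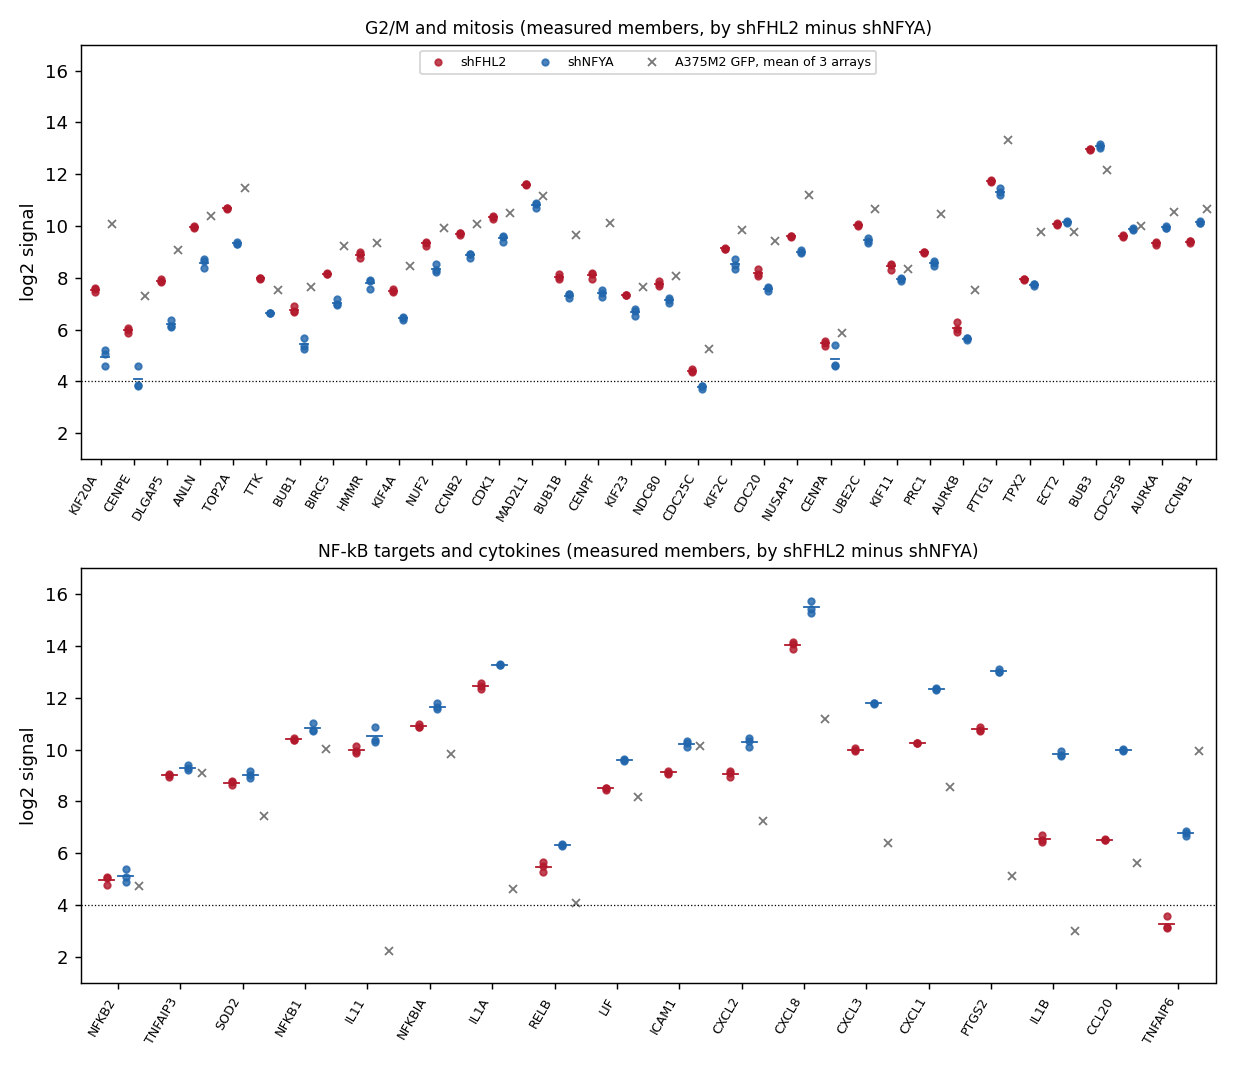
Log2 signal on each array for the 34 measured G2/M and mitosis genes (top) and the 18 NF-kB targets and cytokines (bottom), ordered by the difference; red points are the 3 shFHL2 arrays, blue points the 3 shNFYA arrays, short lines their means, crosses the mean of 3 A375M2 GFP arrays, and the dotted line log2 4. Most mitotic genes have red above blue with CCNB1 and AURKA at the far end reversed, and every cytokine gene has its red mean below its blue mean.

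Genes of MHC class II antigen presentation, which some melanomas express, were higher in shFHL2. Of 12 measured members, 11 (91.7%) were called higher, with a median difference of 0.85, and CTSS was called lower. HLA-DOA, a chain of the peptide-loading modulator HLA-DO, read 7.34, 7.13 and 7.09 log2 in shFHL2, against 3.49, 3.61 and 3.83 in shNFYA, a floored difference of 3.18. HLA-DMB, part of the peptide exchange factor HLA-DM, differed by 1.28 (SE 0.0488, adjusted p = 2.18e-13), HLA-DPB1 by 1.07, HLA-DPA1 by 0.89 and HLA-DRA by 0.81; probe sets for these chains can read more than one of the related HLA genes. Of 14 class I genes, 10 (71.4%) were called higher and 1 lower, with a median of 0.23. ERAP2, a peptide-trimming aminopeptidase, differed by 1.46, HLA-E by 0.56 and the immunoproteasome subunit PSMB8 by 0.50, while TAPBP, the class I loading chaperone tapasin, differed by -0.51. The 4 ERAP2 probe sets ran from -0.01 to 1.46.

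Interferon-stimulated genes ran both ways, 12 (48%) of 25 called higher and 8 (32%) lower, with a median of 0.01. The IFITM genes, membrane proteins that restrict virus entry and resemble each other in sequence, were the ones with the smallest adjusted p: IFITM3 read 13.46, 13.38 and 13.36 log2 in shFHL2, against 11.63, 11.64 and 11.68 in shNFYA (1.75, SE 0.0356, adjusted p = 8.91e-17). IFITM2 differed by 1.76, IFITM1 by 2.75 and IFIT2 by 1.55. The 2 IFIT2 probe sets differed by 0.30 and 1.55. OAS1 at -1.36 was the most negative of the 25.

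Markers of melanoma cell state moved in several directions. A375M2 is labelled a melanoma line, and of 9 measured melanocyte markers PMEL, MLANA, TYR and GPR143 lay under log2 4 on all 6 arrays. MITF, the master transcription factor of the lineage, was present at 10.06, 10.01 and 10.09 log2 in shFHL2, against 9.06, 8.90 and 8.90 in shNFYA (1.10, SE 0.0527, adjusted p = 4.95e-12). SOX10, a neural crest factor upstream of MITF, read 12.26, 12.38 and 12.37 in shFHL2, against 12.65, 12.78 and 12.75 in shNFYA (-0.39, SE 0.0399, adjusted p = 1.14e-07). The melanosome enzyme TYRP1 averaged 3.76 ± 0.03 in shFHL2 and 4.60 ± 0.49 in shNFYA (SD, n = 3 each). Of the 20 measured pigment lineage genes, 8 (40%) were called higher and 5 (25%) lower. PAX3, an upstream activator of MITF, differed by 1.71, GPNMB, a melanosome glycoprotein, by 1.24 and RAB27A, which tethers melanosomes, by 1.40. ST3GAL6, a sialyltransferase, differed by 2.60 on its brightest probe set, while its 4 probe sets ran from -0.72 to 2.60.

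Of 15 neural crest and glial genes, 10 (66.7%) were called higher and 3 lower: the adhesion molecule L1CAM at -2.36, RXRG at -0.72 and CDH19 at -0.58. SOX2, a stem cell transcription factor, read 7.61, 7.49 and 7.64 log2 in shFHL2, against 4.90, 4.62 and 4.48 in shNFYA (2.92, SE 0.0902, adjusted p = 1.42e-14). That is its brightest probe set, and its 2 probe sets differed by 0.21 and 2.92. The calcium-binding protein S100B differed by 1.44, SOX6 by 1.68 and SNAI2, a transcription factor of migrating neural crest, by 1.20. Of 20 genes of the undifferentiated and invasive melanoma state, 13 (65%) were called higher and 1, FOSL2, lower. FN1, fibronectin, read 12.16, 12.22 and 12.10 in shFHL2, against 10.17, 10.01 and 10.04 in shNFYA on its brightest probe set (2.09), and its 6 probe sets ran from 0 to 2.24. CRIM1, a transmembrane regulator of bone morphogenetic proteins, differed by 1.39 and CAV1, the membrane scaffold caveolin-1, by 1.35.

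YAP and TEAD are transcription partners held back by the Hippo pathway. Of 21 measured targets and partners, 15 (71.4%) were called higher and 2 lower, with a median difference of 0.70. CCN1, a matricellular protein, read 10.53, 10.42 and 10.47 log2 in shFHL2, against 9.12, 9.07 and 9.13 in shNFYA (1.37, SE 0.0397, adjusted p = 6.34e-15). The arrays did not overlap, as for 74% of all genes tested, and GFP cells stood at 11.40. RBMS3, an RNA-binding protein, differed by 2.73, the phosphatase PTPN14 by 1.04 and TEAD1 itself by 0.85. The Hippo kinase LATS2 and FOXF2 were the 2 called lower, at -0.83 and -0.54.

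In MAPK signalling, the pathway that mutant BRAF drives in melanoma, 16 of 25 output and feedback genes (64%) were called higher and 7 lower. SPRY1, a feedback inhibitor of receptor signalling, read 7.19, 7.27 and 6.82 log2 in shFHL2, against 2.93, 2.72 and 2.72 in shNFYA, a floored difference of 3.09. That is its brightest probe set, and its 2 probe sets differed by 0.20 and 4.31 as measured. FOS, an immediate early transcription factor, read 9.03, 9.05 and 8.99 in shFHL2, against 5.92, 5.61 and 6.15 in shNFYA (3.13, SE 0.0954, adjusted p = 1.20e-14), and its partner JUN differed by 1.15. The phosphatase DUSP10 differed by 0.91. DUSP6 and EGR1, also read as output of the pathway, did not pass the test at -0.06 and -0.07.

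Of 32 receptor tyrosine kinases and ligands, 17 (53.1%) were called higher and 3 lower. The ephrin receptor EPHA3 read 13.11, 13.17 and 13.19 log2 in shFHL2, against 11.97, 11.90 and 11.90 in shNFYA (1.23, SE 0.041, adjusted p = 3.68e-14). KDR, a receptor of vascular endothelial growth factor, differed by 1.72. The ligand PDGFA and the receptor EPHB1 lay under log2 4 in shNFYA, and their floored differences were 1.54 and 0.59. The 3 called lower were FGFR3 at -1.64, KITLG at -0.98 and INSR at -0.39.

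Of 24 genes of TGF-beta and bone morphogenetic protein signalling, 13 (54.2%) were called higher and 5 lower. Follistatin led the rises, ID3, a target of bone morphogenetic proteins that blocks DNA binding of partner factors, differed by 0.73 and GDF15, a stress-induced family member, by 0.69. BMP2, a ligand of the family, read 10.30, 10.54 and 10.50 log2 in shFHL2, against 11.74, 11.67 and 11.65 in shNFYA (-1.24, SE 0.0704, adjusted p = 4.94e-11). Of 18 WNT genes, 9 (50%) were called higher and 3 lower. DKK3, a secreted member of the Dickkopf family, read 10.20, 10.09 and 10.15 in shFHL2, against 7.28, 6.96 and 7.53 in shNFYA (2.89), while its relative DKK1 differed by -1.68. LGR4, a receptor of R-spondins, differed by 1.71, LEF1, a nuclear effector of the pathway, by 1.51 and SFRP1, a secreted WNT antagonist, by 1.35.

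The LIM-domain relatives of FHL2 were split. Of 20 measured LIM genes, 9 (45%) were called higher and 5 (25%) lower, FHL2 included. FHL3, a close relative of FHL2 with the same domain order, differed by 0.46. The focal adhesion proteins TES and PDLIM1 differed by 0.80 and 1.09, CSRP2 by 0.92 and LMCD1 by 1.10. LPP differed by 1.44 on its brightest probe set, with 5 probe sets from -0.80 to 1.47. ZYX, which encodes the focal adhesion protein zyxin, read 5.41, 4.85 and 5.67 log2 in shFHL2, against 6.15, 6.69 and 6.96 in shNFYA (-1.29), and PDLIM7 differed by -1.07.

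Integrin and focal adhesion genes were called higher in 11 (44%) and lower in 10 (40%) of 25. ITGA1, a collagen-binding integrin chain, read 10.46, 10.39 and 10.49 log2 in shFHL2, against 8.31, 8.15 and 8.35 in shNFYA (2.18, SE 0.0923, adjusted p = 9.18e-13). ITGB5 differed by 0.96 and the adhesion protein TNS3 by 1.17, while ITGB3, the beta chain of a vitronectin receptor, differed by -0.75. The 4 ITGB5 probe sets ran from 0.21 to 0.96 and the 6 of ITGB3 from -1.22 to 0.02. Of 19 collagens, 7 (36.8%) were called higher and 6 (31.6%) lower, near the 31.8% and 38.3% of all genes. The transmembrane collagen chain COL13A1 differed by 2.01 and the basement membrane chain COL4A2 by 0.63, whereas the fibrillar chain COL5A2 differed by -0.98. COL8A1 differed by 1.46 as measured and by 0.03, without passing the test, with values under log2 4 set to 4 (adjusted p = 0.75). Of 29 matrix glycoproteins, 14 (48.3%) were called higher and 7 (24.1%) lower. FBN1, fibrillin-1, differed by 2.19, LAMB1, a laminin chain, by 0.71 and ECM1 by -1.51.

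Secreted proteases and their inhibitors were mostly lower in shFHL2, 13 of 20 (65%) against 3 higher (15%), with a median difference of -0.43. Beside MMP10, SERPINB7, a serine protease inhibitor of keratinocytes, read 3.48, 2.51 and 3.08 log2 in shFHL2, against 6.94, 7.23 and 7.25 in shNFYA, a floored difference of -3.14. TIMP3, an inhibitor of metalloproteinases bound to the matrix, read 13.85, 13.83 and 13.80 in shFHL2, against 14.45, 14.52 and 14.50 in shNFYA (-0.66, SE 0.0286, adjusted p = 1.22e-12). The 3 called higher were the metalloproteinases MMP16 at 1.31, ADAMTS1 at 1.15 and MMP2 at 1.01. The 5 MMP16 probe sets ran from -0.21 to 1.31.

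Genes of protein folding in the endoplasmic reticulum were lower in shFHL2 more often than higher, 15 (60%) against 7 (28%) of 25, with a median difference of -0.21. SDF2L1, whose promoter is shown above, read 8.54, 8.41 and 8.56 log2 in shFHL2, against 10.27, 10.23 and 10.28 in shNFYA (-1.76, SE 0.0459, adjusted p = 1.81e-15). CRELD2, a secretory pathway protein induced by folding stress, differed by -1.57, the disulfide isomerase PDIA3 by -1.01 and the cochaperone DNAJC3 by -0.91. Of 18 sterol synthesis genes, 10 (55.6%) were called lower and 3 (16.7%) higher: MSMO1 differed by -0.60, NSDHL by -0.89 and FDPS, farnesyl diphosphate synthase, by -0.41, while TM7SF2 was higher with a floored difference of 0.85. Of 36 mitochondrial ribosomal proteins, 17 (47.2%) were called lower and 7 (19.4%) higher, none by 2-fold or more. Of 22 cytosolic ribosomal proteins, 6 (27.3%) were called higher and 2 lower, with a median of 0.01 and no difference above 0.19.

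Genes that mark other cell types were read in both arms. Of 18 epithelial and keratinocyte markers, 8 were measured, with 3 called higher and 3 lower, and their summed level (log2 of the summed linear signals) was 13.47 to 13.54 in shFHL2, against 14.58 to 14.69 in shNFYA. S100A2, a calcium-binding protein of basal epithelium, read 12.15, 12.08 and 12.04 log2 in shFHL2, against 14.32, 14.26 and 14.38 in shNFYA (-2.23), and KRT14 was lower too at a floored difference of -1.08. KRT18 and KRT7 were higher, by 0.64 and 1.12, and ESRP1, under log2 4 in shNFYA, was higher with a floored difference of 0.27. The arms do not overlap in this sum, but in shNFYA it is mostly the signal of S100A2 alone. It therefore does not show a shift of the list as a whole. KRT15, among the largest falls, is itself a member of the list. Genes outside the list ran both ways. SERPINB7 and FERMT1 fell, while CSTA, IL37 and the cadherin genes DSC2 and DSC3 rose, the last 2 by 1.16 and 0.80. A link between any of them and the sum was not tested. Of the 9 melanocyte markers, 2 were called higher and 3 lower, and their summed level was 13.14 to 13.24 in shFHL2 and 13.04 to 13.12 in shNFYA. Of the fibroblast markers 5 of 10 were measured (8.90 to 9.02 in shFHL2, 8.69 to 8.89 in shNFYA), of the Schwann and neural markers 3 of 10 (11.94 to 11.99 and 12.10 to 12.30), of the endothelial markers KDR alone, and of the leukocyte markers LYZ and PTPRC, with PTPRC under log2 4 in both arms.

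The GFP level, given as a description because those arrays have another floor, lay nearer to shFHL2 for 454 of the 697 genes that were 2-fold or more higher in shFHL2 and nearer to shNFYA for 243. Of the 440 genes that were 2-fold or more lower, it lay nearer to shFHL2 for 332 and nearer to shNFYA for 108. It lay between the arms for only 180 of the 697 and 133 of the 440. Among the higher genes it was at or above both arms for 348 and at or below both for 169; among the lower genes these counts were 62 and 245.

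C32 is another melanoma line, and its shFHL2 arrays share no array with the A375M2 comparison; they were set against C32 GFP, so a vector difference is part of that comparison. There, 6847 genes (62.6%) were called, and at 2-fold or more 3.52% of all genes were higher and 5.04% lower. Of the 697 genes that were 2-fold or more higher in A375M2 shFHL2 than in shNFYA, 46 (6.6%) were also 2-fold or more higher in C32 shFHL2, which is 11.9% of the 385 C32 genes, while 81 (11.6%) were 2-fold or more lower there. Of the 440 lower genes, 29 (6.59%) were also lower in C32, which is 5.26% of the 551 C32 genes, and 17 (3.86%) were higher. Among the higher genes more thus had the opposite direction in C32 than the same one, and among the lower genes fewer. The C32 comparison itself had more genes lower than higher. For the lower genes, 6.59% and 3.86% lay close to the 5.04% and 3.52% of all genes. For the higher genes, 6.6% and 11.6% both lay above the 3.52% and 5.04% of all genes. The overlap was not tested.

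The shared rises were led by FAM133A, at 11.05, 11.10 and 11.21 log2 in A375M2 shFHL2, against 8.46, 8.67 and 8.43 in shNFYA, with a difference of 4.11 in C32. TLR4, the receptor for bacterial lipopolysaccharide, differed by 1.80 in A375M2 (SE 0.0749, adjusted p = 6.94e-13). In C32 it lay under log2 4 in GFP cells, and its difference there was 4.35 with values under log2 4 set to 4 (6.10 as measured). CRYBG1 differed by 2.08 and 1.63, S100A3 by 1.62 and 1.76, CDCA7L by 1.70 and 1.31 and the non-coding OLMALINC by 1.38 and 1.64. Of cell cycle genes, the kinetochore motor CENPE differed by 1.89 in A375M2 and 1.33 in C32, and MKI67, the proliferation antigen Ki-67, by 1.51 and 1.30. The 4 MKI67 probe sets ran from 0.22 to 1.51 in A375M2. KIF20A and DLGAP5 were higher in C32 too, by 0.86, which is under 2-fold, and 1.13. CCNB1 ran in opposite directions, at -0.77 in A375M2 and 0.95 in C32.

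The shared falls were led by FHL2 itself, at -3.93 in A375M2 and -5.24 in C32. PLSCR4, a phospholipid scramblase, read 4.94, 4.86 and 4.86 log2 in A375M2 shFHL2, against 7.30, 7.02 and 6.996 in shNFYA (-2.22), and differed by -1.997 in C32. CXCL8 differed by -1.45 and -2.48, VLDLR, a lipoprotein receptor, by -1.39 and -1.56, and TSPAN10, a tetraspanin, by -1.39 and, with the floor at log2 4, -2.73. THAP2 differed by -1.43 and -1.45 and TBXA2R, the thromboxane receptor, by -1.44 and -1.40. The 3 TBXA2R probe sets ran from -1.64 to -0.16 in A375M2. SPECC1 differed by -1.76 and -1.61 on its brightest probe set, but its 2 probe sets ran from -1.76 to 0.49 in A375M2. CCL20, IL1B and CXCL1 lay under log2 4 in both C32 groups, so their direction could not be compared there.

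**Figure D5:**
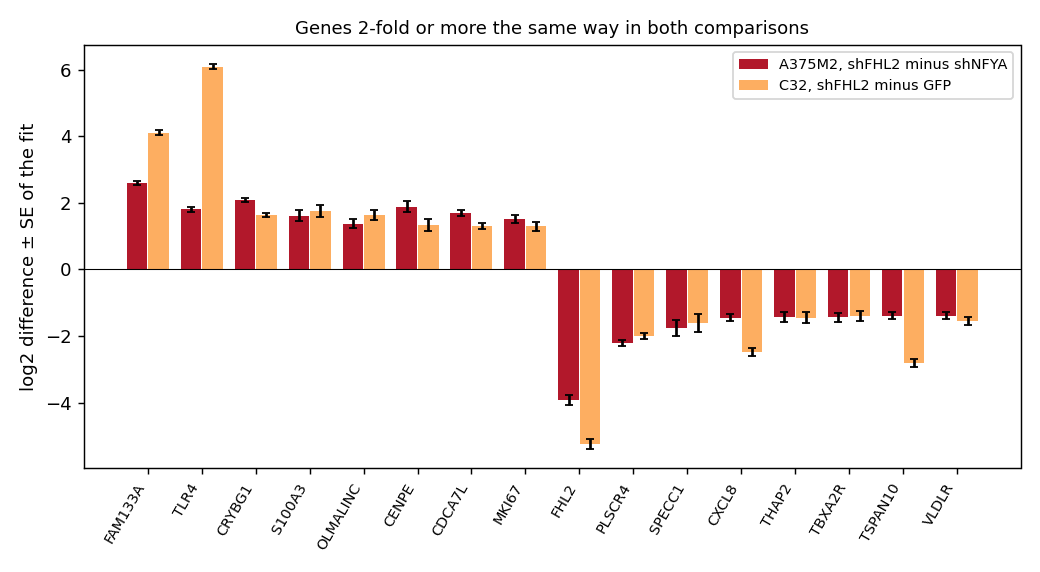
Log2 difference with the SE of the fit (error bars) for the 8 genes higher and the 8 lower in both comparisons by 2-fold or more; red bars are A375M2 shFHL2 minus shNFYA (3 arrays each), orange bars C32 shFHL2 minus GFP (3 and 2 arrays). FHL2 has the lowest bar in both at -3.93 and -5.24, and the TLR4 bar of C32, at 6.10 as measured, is 4.35 with values under log2 4 set to 4.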

How the data were processed

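The deposited values are on the log2 scale and come from GCRMA, which corrects background by probe sequence and normalizes arrays by quantiles (submitters' processing notes, no version given). All columns were matched to samples by title (0 unused). Of 23416 probe sets, 20264 had 1 gene symbol (995 several, 2099 none, 58 controls). Those at log2 4 or more in at least 3 arrays were kept (758 left out), and the one with the highest mean stood for its gene. A gene high in 1 arm alone could pass this filter through that arm. By group means CD24, NTS, DRAIC, SERPINB7 and KRT14 passed through shNFYA in this way, and MCTP2 and EPHB1 through shFHL2. Limma 3.58.1 (R 4.3.3; group means, eBayes with a trend) was fitted to 17 arrays, without C32 GFP replicate 3, which lay on the mean of replicates 1 and 2 (SD 0.00686), giving 11 residual degrees of freedom. Per the series description RNA came from 3 separate experiments for the FHL2 arm; for NFYA this is not stated, so p-values may measure technical spread. The number of arrays limits precision. Code was tested on simulated data; plots used matplotlib 3.10.9.

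Members and lists were chosen with earlier results of these data known. Named are FHL2, NFYA and PMEL; the 12 largest called rises and falls without overlap of arrays (values under log2 4 set to 4); the 6 largest each way at log2 8 or more; up to 4 called members a list by adjusted p (all LIM, NF-Y subunit and marker genes may be given); and 8 genes each way shared with C32. Members on the minority side of a list, those that failed the test, the CCNB2 and CCNB1 promoters and DKK1 and OAS1 fall outside this rule and were picked once their values were known. Each array was left out in turn, and filter, floor, scaling, probe set choice and fit were varied.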

Additional observations from a re-analysis of the deposited data

How the results depend on the processing

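The counts of called genes and the FHL2 and NFYA differences kept their direction and their side of the threshold under every alternative run. Over 15 alternatives with all arrays of both arms, called higher ran from 3052 to 3548, lower from 3701 to 4277, 2-fold higher from 628 to 826 and 2-fold lower from 406 to 564; the genes 2-fold higher or lower also in C32 ran from 36 to 49 and from 24 to 30 over 7. With each array left out in turn, these A375M2 counts were 3302 to 3370, 3968 to 4092, 695 to 722 and 422 to 452, the FHL2 difference -3.84 to -3.97 and that of NFYA 1.24 to 1.42; a pair of arrays left in an arm shares the spread of the other groups. Among 189 named genes and 21 alternatives, 3957 of 3965 values kept direction and call. Of these, 5 reversed, all by the choice of probe set: with the most variable probe set SPECC1 was 0.49 (adjusted p = 0.00271), SCD -0.42 (0.0022) and P4HA2 1.12 (1.8e-06), and with the mean of all probe sets SCD was -0.15 (0.0136) and P4HA2 0.15 (0.0621). Another 3 lost the call: COL8A1 with a floor (0.03), and MCM6 (0.23) and FN1 (0, adjusted p = 1) with the most variable probe set. Of 1764 list counts, 7 differed by more than 1.5 times from the reported count (smaller shifts are not listed), and these 7 were counts of members called lower: MHC class I to 2, receptor tyrosine kinases to 6, YAP and TEAD targets to 4 and cytosolic ribosome to 4 with other probe set choices, fibroblast markers to 1 with no filter, and undifferentiated melanoma to 2 with only the 6 arrays or without A375M2 shFHL2 replicate 3. The labels do not say what the replicate numbers mark, and the main fit used no pairing. Deviations of same-numbered arrays from their arm's mean had correlations of -0.049, -0.0038 and -0.05. These show no shared replicate effect, but they cannot show that the arrays are unpaired. With the replicate block 3475 genes were called higher and 4187 lower, with FHL2 at -3.93 (limma adjusted p = 6.57e-12) and NFYA at 1.33 (1.36e-09). Signal near the lowest array values limits the size of large differences, and the absence of a non-targeting shRNA limits which arm a difference belongs to.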

Other observations

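Further gene groups are given with their counts, to be read against 31.8% higher and 38.3% lower over all genes. Cadherin and contactin genes were called higher in 11 of 17 and lower in 5; CNTN4, a neuronal adhesion molecule, read 11.78, 11.74 and 11.83 log2 in shFHL2, against 9.66, 9.54 and 9.46 in shNFYA (2.23, limma adjusted p = 5.49e-11), PCDH18 had a floored difference of 1.94, and N-cadherin (CDH2) differed by 0.66 and CDH19 by -0.58. The aldo-keto reductases AKR1C1, AKR1C2 and AKR1C3, which have near-identical sequences, differed by 1.83, 1.84 and 1.39, and of 17 oxidative stress genes 10 were called higher, FTL among them at 0.73, and 6 lower, HMOX1 among them at -1.54. Of 32 lysosome and autophagy genes, 8 (25%) were called higher and 17 (53.1%) lower: the bone-resorbing protease CTSK read 7.91, 7.98 and 7.78 log2 in shFHL2, against 4.10, 3.89 and 4.67 in shNFYA (3.67), LAMP3 had a floored difference of 3.14, BACE2 differed by 1.21 and the lysosomal membrane protein LAMP1 by -0.70.

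Fatty acid genes were called higher in 9 of 16 and lower in 2 (ACSS2 1.33, FABP5 0.62, ACLY -0.57; SCD 0.46 on its brightest probe set, with 4 probe sets from -0.70 to 0.46), hypoxia genes in 11 and 7 of 23 (ADM 1.59, PFKFB3 0.99, BNIP3L -0.69; P4HA2 -0.82 with its 2 probe sets in opposite directions) and amino acid stress genes of ATF4 in 14 and 8 of 28 (SHMT2 0.65, SLC7A5 -0.62). Genes of p53 were called higher in 6 and lower in 7 of 17: PLK2 differed by 1.38 and CDKN1A, the cell cycle inhibitor p21, by -0.54. Heat shock genes were called higher in 3 and lower in 6 of 16 (HSPH1 -0.96, HSP90AA1 -0.45), histones in 6 and 5 of 15 (H1-2 1.19, MACROH2A1 -0.83, H2BC4 with a floored difference of -1.94), SRF and contractile genes in 7 and 4 of 16 (CNN3 1.66, ACTN1 -0.38) and cancer-testis genes in 4 and 4 of 14 (SSX1 1.04, GAGE1 with a floored difference of 1.93). The shares of the p53 list (35.3% higher, 41.2% lower), the histones (40% and 33.3%) and the cancer-testis genes (28.6% each way) lay near that background.

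Probe sets that name several genes or none stayed out of the gene tests. Of 1891 probe sets with no gene, 261 (13.8%) were called at 2-fold or more, 177 higher in shFHL2 and 84 lower, and of 962 with several genes, 96 (9.98%) were called, 57 higher and 39 lower.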
